A study of Sorghum bicolor with 14 samples.

Results

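The middle internode of the sorghum stem (Sorghum bicolor, grain variety M35-1) was compared by RNA sequencing between drying pots and the field at one stage, booting, when the panicle swells inside the sheath of the flag leaf. The booting group came from plants sown in a fertilised soil bed and watered regularly. The D2 group came from plants kept singly in pots, from which water was withheld once the flag leaf had appeared, and was harvested at booting with a soil moisture reading of about 7%. Each group had 2 libraries, of 14 in the series, and both libraries of a group share 1 deposited column of FPKM, which are fragments scaled by transcript length and by the total of mapped fragments. For that reason no value has a replicate check and no SD or p-value is given. Pot growth, withheld water, separate normalization and the final digit in the titles (1 for D2, 2 for booting) cannot be told apart. The labels do not say whether a library holds 1 plant or several.

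The compared loci carry the same annotation IDs and the same printed range in the tables of development (34755 loci) and of drought (32726 loci). Of these, 26825 met that rule, and 12843 of them had 1 FPKM or more in the higher of the 2 columns and counted as measured. Another 5203 loci had the same IDs in both tables but different ranges and were left out. The 3 measured loci nearest the filter had 1.0001 to 1.0042 FPKM in the higher column, and the 3 nearest outside it had 0.9984 to 0.9995. The files do not pair the IDs with gene names, so no function is given to any locus below, and the labelled tissue was not checked against marker genes.

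A grass internode first lengthens by cell division and expansion, then thickens its cell walls with cellulose and lignin, and in sorghum its parenchyma stores sucrose around and after flowering. Expansion growth depends on turgor and is among the first processes to slow when water is short. Drying soil also raises the hormone abscisic acid, under which plants switch on genes for osmolytes and protective proteins.

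At D2, 1715 of the 12843 measured loci were higher than at booting and 1986 were lower, where a locus is called when log2(FPKM + 1) differs by at least 1. The calls took in 28.8% of the measured loci, 13.4% higher and 15.5% lower. The median difference was 0.09 and the quartiles were -0.53 and 0.61, with 44.6% of the loci within 0.5 log2 units of no difference. Lower loci outnumbered higher ones at larger thresholds too. At a threshold of 2 log2 units 425 loci were higher and 723 lower, at 3 units 138 and 263, at 4 units 41 and 110, at 5 units 17 and 41, and at 6 units 8 and 12. Close to the call threshold, 285 higher and 214 lower loci had a difference of 1 to 1.1, and 313 and 219 had one of 0.9 to 1. The balance of the directions depended on the scaling: with every column rescaled to the sum of the booting column, which leaves the booting values as deposited, it was 2021 higher and 1833 lower. That rescaling, added after the data were seen, moved the median difference by 0.10. Relative to the median of each scaling the counts were 1458 higher and 2181 lower as deposited and 1442 and 2213 rescaled.

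**Figure D1:**
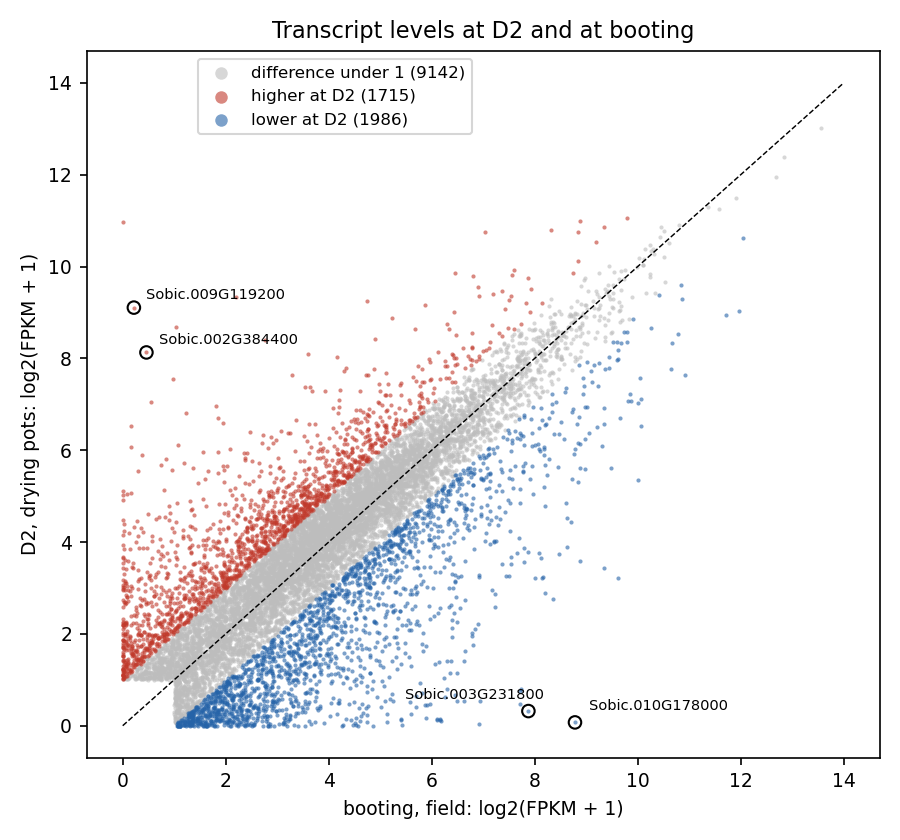
Level of each of the 12843 measured loci at booting (horizontal axis) and at D2 (vertical axis), both as log2(FPKM + 1), with the dashed line marking equal levels. Red points (1715) were at least 1 log2 unit higher at D2 and blue points (1986) at least 1 lower. The 4 circled loci are the largest differences among loci with a single ID and a range of their own.

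Against the other columns, the same matched loci place D2 close to the other pot groups, which are in its own table. D2 differed from D1 (soil moisture about 13%) at 6.08% of measured loci and from D3 (about 2%) at 11%. It differed from milky stage at 28.7%, from floral initiation at 29.8% and from soft dough at 36.3%. Booting differed from D1 at 25.6% and from D3 at 23.8%, and from floral initiation, in its own table, at 9%. Shares within the development table could also be large. Floral initiation differed from milky stage at 28.6% and from soft dough at 29.3%, close to the 28.8% of D2 against booting. The median absolute log2 difference was 0.58 for D2 against booting and 0.25 for D2 against D1.

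Sobic.009G119200 (chromosome 9, 46821033 to 46826334) had the largest positive difference among loci with 1 ID and a range of their own, with 0.162 FPKM at booting and 549.9 at D2, a log2 difference of 8.89. In the other pot groups it had 870 FPKM at D1 and 6.93 at D3, and in the other field stages 0.267 at floral initiation, 16.3 at milky stage and 0.102 at soft dough. It was therefore high in 2 of the 3 pot groups, and its level at D3 lay below that at milky stage. Sobic.002G384400 (chromosome 2, 73966176 to 73967637) had 0.376 FPKM at booting and 279 at D2, a difference of 7.67. It was high in all pot groups, with 399.9 FPKM at D1 and 391.8 at D3, but also reached 115 at milky stage and 39.6 at soft dough, against 2.13 at floral initiation. The highest field value of this locus was thus below its lowest pot value.

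The largest negative difference among such loci was that of Sobic.010G178000 (chromosome 10, 51603656 to 51604401), which had 439 FPKM at booting and 0.0511 at D2, a log2 difference of -8.71. Its other field values were 12.4 FPKM at floral initiation, 218 at milky stage and 709.7 at soft dough. Its other pot values were 0.849 FPKM at D1 and 0.252 at D3. Sobic.003G231800 (chromosome 3, 57122090 to 57122904) went from 234 FPKM at booting to 0.247 at D2, a difference of -7.56. It had 136 FPKM at floral initiation, 51.1 at milky stage and 82.1 at soft dough, against 1.43 at D1 and 10.3 at D3. For both loci every field value lay above every pot value. Their ranges of 746 and 815 bp fall in the class under 1000 bp, where 37.0% of loci were lower at D2, beside 15.5% of all measured loci.

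**Figure D2:**
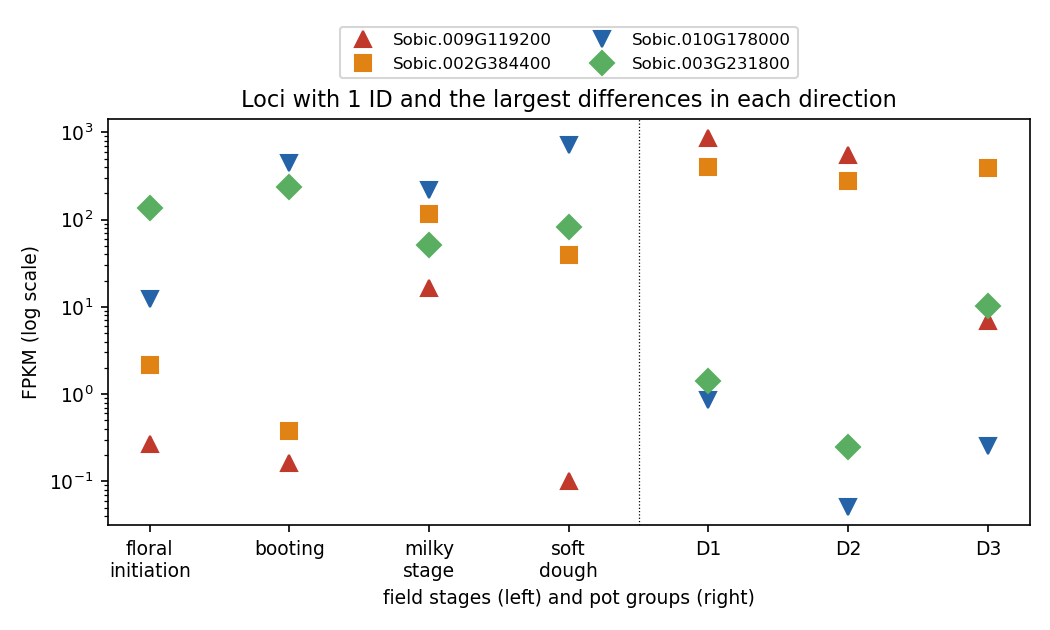
FPKM (log scale) of the 2 loci in each direction with the largest differences between D2 and booting among loci with 1 ID and a range of their own, in each of the 4 field stages (left of the dotted line) and the 3 pot groups (right), 1 pooled value per group. Sobic.010G178000 and Sobic.003G231800 lie at 12.4 FPKM or more in every field stage and at 10.3 or less in every pot group, and Sobic.002G384400 lies at 279 or more in the pot groups and at 115 or less in the field.

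The 5 columns that did not enter the choice of loci show where the 2 lists stand elsewhere. The 1715 higher loci had a median of 4.33 FPKM at booting and 17.5 at D2. The pot groups D1 and D3 had medians of 16.2 and 12.2, against 4.89 at floral initiation, 7.08 at milky stage and 6.36 at soft dough. All pot medians of this list thus lay above all field medians. The 1986 lower loci had a median of 13.95 FPKM at booting and 2.23 at D2. Their medians were 4.35 FPKM at D1 and 3.85 at D3, below 11.1 at floral initiation, 6.12 at milky stage and 8.01 at soft dough. Within the field, the higher list was lowest and the lower list highest at the 2 early stages, while the 9142 loci that were not called had medians between 12.8 and 14.3 FPKM in all 7 columns. D2 and booting are the extremes of both lists by the way the lists were chosen. D1 and D3 share a table with D2 and differed from it at 6.08% and 11% of measured loci. Floral initiation shares one with booting and differed from it at 9%. The order of the medians in these columns was therefore also largely set by the choice and is no independent check.

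The loci with the largest differences followed the same order at a larger scale, with the same limit from the choice of loci. Those at least 3 log2 units higher (138 loci) had medians of 0.937 FPKM at booting, 33.8 at D2, 31.0 at D1 and 16.7 at D3. Their field medians were 1.48 FPKM at floral initiation, 5.94 at milky stage and 5.54 at soft dough. Those at least 3 log2 units lower (263 loci) had medians of 41.7 FPKM at booting, 1.32 at D2, 4.17 at D1 and 2.35 at D3, with 24.4 at floral initiation, 11.9 at milky stage and 18.5 at soft dough. Added up, the lower loci held 24.0% of the FPKM of all measured loci at booting and 6.08% at D2, and the higher loci 4.59% and 17.8%.

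**Figure D3:**
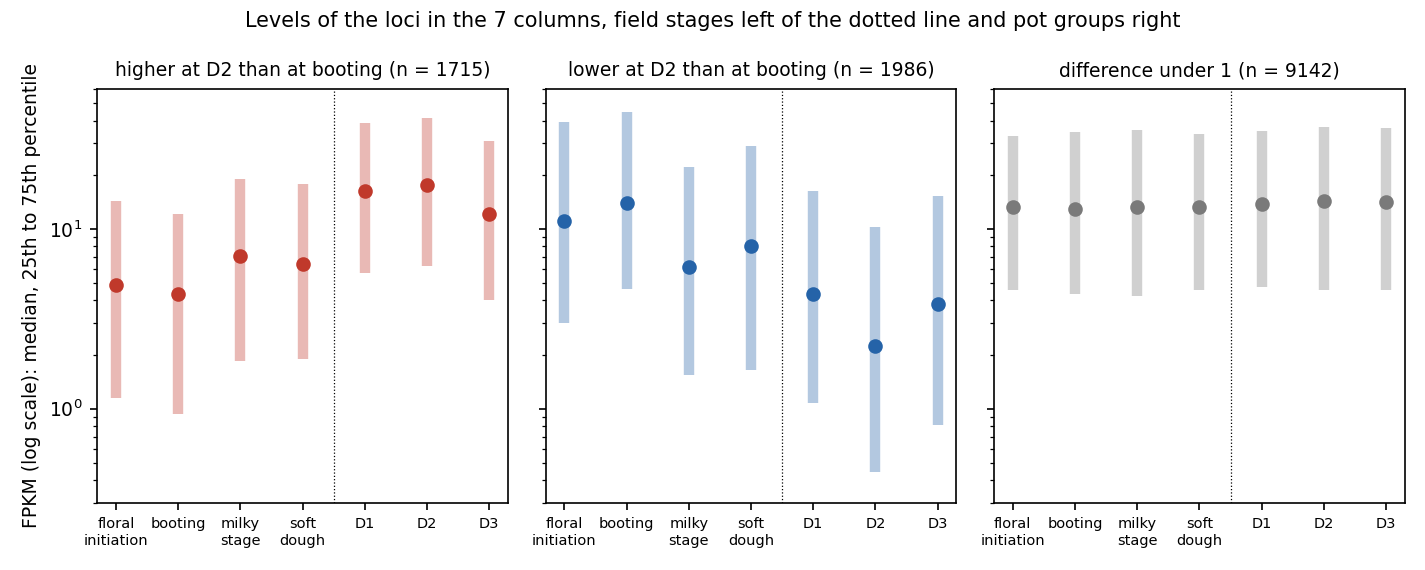
FPKM (log scale) in the 7 columns for the loci higher at D2 than at booting (1715), lower (1986) and not called (9142); points are medians over loci and bars run from the 25th to the 75th percentile, which is a spread among loci and not among plants. The higher list has its 3 highest medians in the pot groups (12.2 to 17.5 FPKM) and the lower list its 3 lowest (2.23 to 4.35). The lists were chosen by D2 and booting, and D1 and D3 share a table with D2, so this order was largely set in advance.

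Comparisons that share no column with D2 against booting were set beside it, over loci measured in both. D1 against floral initiation also sets a pot group against a field stage, but both library titles end in 1 and the stages differ. D1 differed from D2 at 6.08% of measured loci, D3 from D2 at 11% and floral initiation from booting at 9%, each pair within 1 table. Large overlaps against floral initiation were therefore largely set in advance and are no independent check. Overlaps of D1 and D3 against milky stage and soft dough carry the same limit on the pot side and are no independent check either. Of 1666 loci higher at D2 than at booting, 1129 were also higher at D1 than at floral initiation, which is 67.8% of the first list and 55.9% of the second, where 16.2% of all 12499 loci were called higher. Of these loci, 23 went the opposite way, or 1.38% beside 12.2% of all loci. Of 1852 loci lower at D2, 1008 were lower at D1 than at floral initiation, or 54.4% of the first list and 66.3% of the second, beside 12.2% of all loci. The opposite call was made for 118 of the 1852, or 6.37% beside 16.2% of all loci. For D3 against floral initiation the shares were 52.7% of the higher list (14.4% of all loci) and 56.6% of the lower list (13.5%). The shares were lower against the later field stages. D1 against milky stage took in 50.6% of the higher list (17.2% of all loci) and 31.8% of the lower list (10.2%), and D3 against milky stage 37.1% (14.3%) and 36.2% (10.8%). D1 against soft dough took in 55.3% of the higher list (19.6% of all loci) and 39.6% of the lower list (13.4%), and D3 against soft dough 43.8% (18%) and 42.6% (14.5%). Across loci, which share columns of the same 2 tables and are not independent, the log2 differences of D2 against booting and D1 against floral initiation correlated with Pearson r = 0.71 and Spearman rho = 0.70. For D1 and D3 against milky stage r was 0.44 and 0.39, and against soft dough 0.46 and 0.41.

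Field development from floral initiation to the later stages also gave shares in the same sense. The lists were chosen by the booting column, and booting differed from floral initiation at only 9% of measured loci. Shares against floral initiation were therefore partly set in advance here too and are no independent check. Of 1867 loci lower at D2 than at booting, 754 were lower at milky stage than at floral initiation, or 40.4% of the first list and 41.3% of the second, beside 14.9% of all 12237 loci. Of 1500 higher loci, 439 were higher at milky stage, or 29.3% and 27.2%, beside 13.2% of all. The opposite combinations held 199 lower-list loci, or 10.7% beside 13.2% of all, and 123 higher-list loci, or 8.2% beside 14.9% of all. The share of 40.4% lay below those of D1 and D3 against floral initiation but above those of D1 and D3 against milky stage. For soft dough against floral initiation, 668 of 1840 lower loci were lower (36.3%, beside 14.2% of all) and 423 of 1505 higher loci were higher (28.1%, beside 13.8%). Opposite calls were made for 305 lower-list loci, or 16.6% beside 13.8% of all, and for 159 higher-list loci, or 10.6% beside 14.2%. From milky stage to soft dough more of the lower list went the other way: of 1704 loci, 325 were higher (19.1%, beside 6.34% of all) and 157 lower (9.21%, beside 3.99%). Of 1488 higher-list loci, 106 were higher (7.12%) and 148 lower (9.95%). The title digit changes from 1 to 2 from floral initiation to either later stage and from 2 to 1 in D2 against booting. Across loci the differences had r = 0.33 and rho = 0.31 with milky stage against floral initiation, r = 0.24 and rho = 0.22 with soft dough against floral initiation, and r = -0.13 and rho = -0.15 with soft dough against milky stage.

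The change from D1 to D3, which takes in the soil moisture of D2, did not continue the pattern in one direction. It does not separate drying before D2 from drying after it. Of 1593 loci lower at D2 than at booting, 276 were lower and 185 higher at D3 than at D1, or 17.3% and 11.6%, beside 7.85% and 3.43% of all 12171 loci. With ranges under 2000 bp left out the order turned, to 135 lower (11.7%) and 149 higher (12.9%), beside 5.38% and 3.09% of all. With all ranges, the 185 loci make up 44.3% of the loci higher at D3 and the 276 loci 28.9% of those lower. The list itself holds 1593 of the 12171 loci. Of 1669 loci higher at D2 than at booting, 303 were lower at D3 than at D1 (18.2%) and 53 higher (3.18%), so the higher list was called lower at D3 more often than all loci were and called higher at about the background share.

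**Figure D4:**
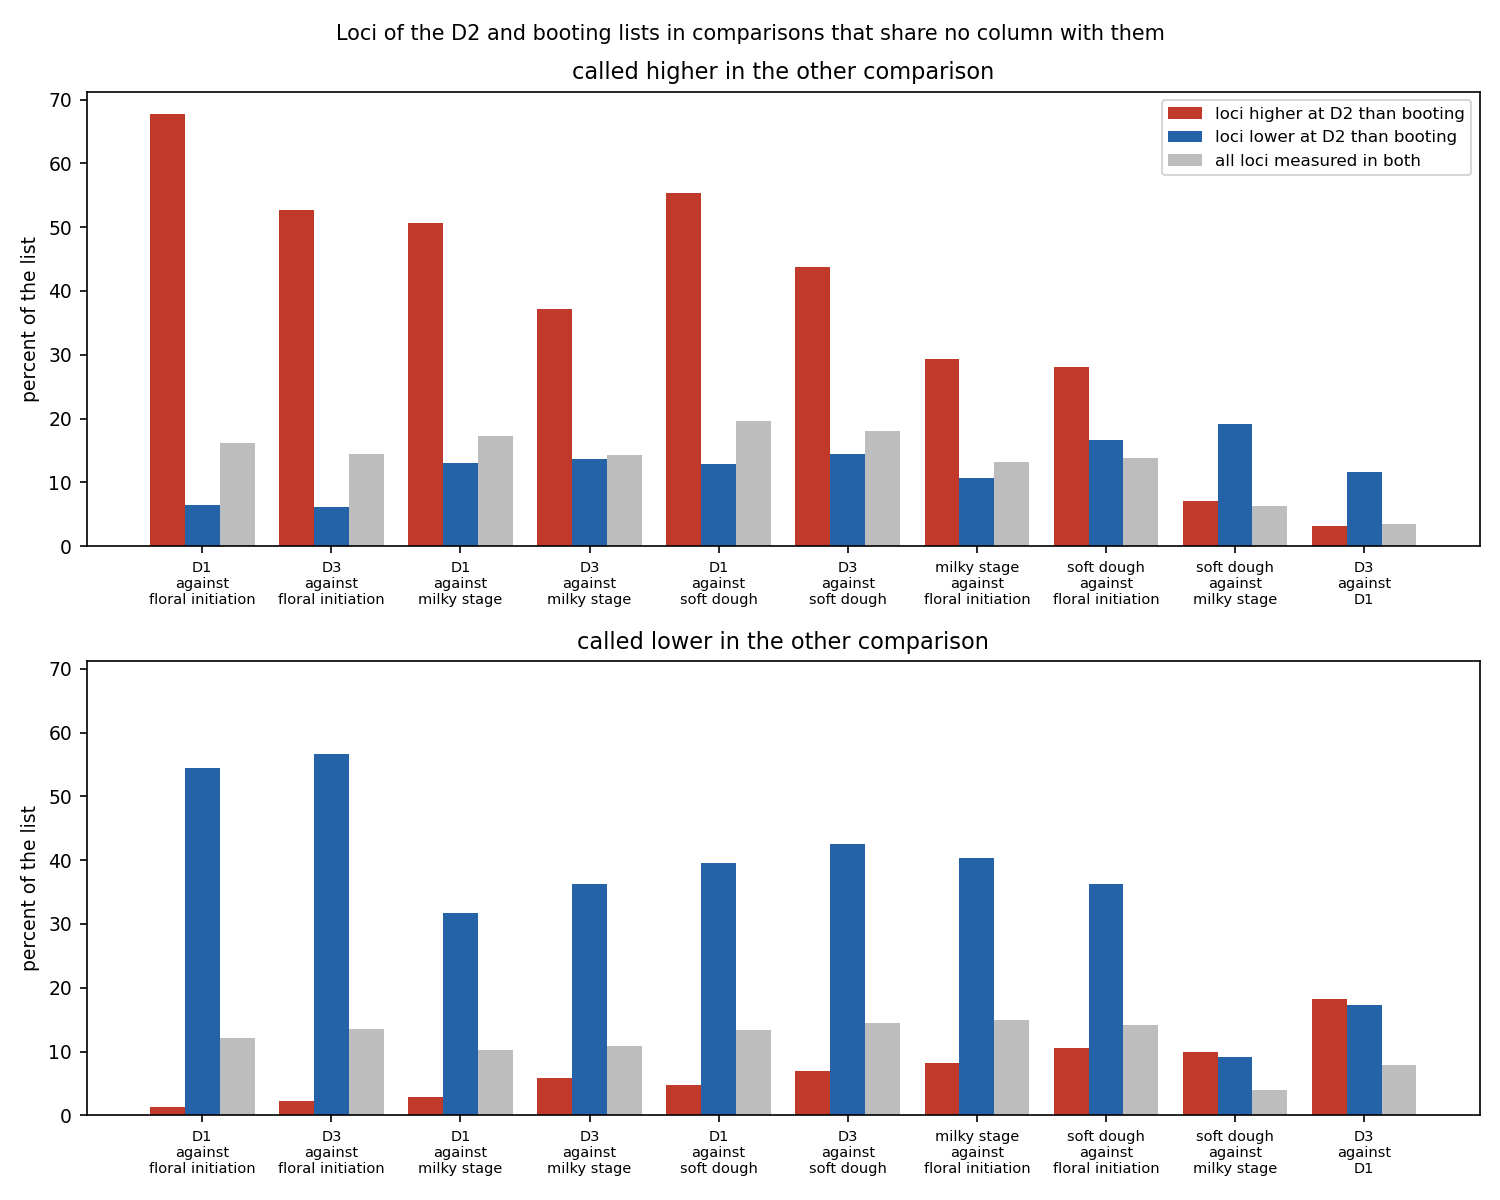
Percent of the loci higher (red) or lower (blue) at D2 than at booting that were called higher (upper panel) or lower (lower panel) in each of the 10 comparisons that share no column with it, beside the percent of all loci measured in both (grey). In D1 against floral initiation 67.8% of the higher list were higher and 54.4% of the lower list were lower, where all loci stood at 16.2% and 12.2%. These shares were largely set in advance, since D1 shares a table with D2 and floral initiation one with booting.

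Some loci were near absent in one column and present in the other. Under 0.1 FPKM at booting and at 5 or more at D2 were 43 loci, on all 10 chromosomes. Of these, 29 were also under 0.1 FPKM at floral initiation, and 15 and 11 were so at milky stage and soft dough. In the other pot groups, 18 reached 5 FPKM at D1 and 13 at D3. One of them, on chromosome 2 at 68926305 to 68928806, was listed at 0 at booting and had 33.6 FPKM at D2, 1.68 at D1, 70.02 at D3 and 40.4 at soft dough. Another, on chromosome 2 at 69488428 to 69490758, had 0.0600 FPKM at booting, 31.9 at D2, 38.7 at D1 and 0.736 at D3, and 0.203 or less at every field stage. These 2 loci were picked after their values were seen and show that the pot groups could order either way among these loci. For this set and the reverse set below, the share of all measured loci at the same levels was not computed. D1 and D3 also share a table with D2, and floral initiation shares one with booting.

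The reverse set, under 0.1 FPKM at D2 and at 5 or more at booting, held 44 loci. None of them reached 5 FPKM at D1 and 1 did at D3, while 30 did at floral initiation and 17 each at milky stage and soft dough. The locus on chromosome 7 at 65105672 to 65107929 is an example, with 119.6 FPKM at booting, 249 at floral initiation, 20.7 at milky stage and 25.1 at soft dough, against 0.0248 at D2, 0.904 at D1 and 0.185 at D3. The locus on chromosome 5 at 53755480 to 53757821 was high at booting alone, with 68.2 FPKM there, 7.10 or less at the other field stages and about 0.1 in every pot group. Exact zeros were few, with 52 measured loci listed at 0 at booting and 39 at D2, and such a value can be a failed estimate. The most extreme is a locus of 4 IDs on chromosome 10 from 52122843 to 52228422, which was listed at 0 at booting, milky stage, soft dough and D3 but had 2089 FPKM at floral initiation, 2226 at D1 and 2015 at D2.

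Of 1005 loci with a mean of 100 FPKM or more over the 7 columns, 95 were higher (9.45%) and 152 lower (15.1%). All measured loci stood at 13.4% and 15.5%. At a mean of 20 to 100 FPKM the shares were 11.6% higher and 12.3% lower, and at 5 to 20 FPKM 14.7% and 13.8%. The locus highest in both columns, on chromosome 2 at 69501545 to 69504021, had 12144 FPKM at booting and 8335 at D2, and was not called. Among the 10 loci most abundant at booting, a choice that favours lower calls, 4 were called lower, and among the 10 most abundant at D2, which favours higher calls, 3 were called higher. Of the 100 loci most abundant by the mean of the other 5 columns, 13 were higher and 18 lower, beside 13.4% and 15.5% of all measured loci. The 4 lower loci include the locus on chromosome 9 at 3045193 to 3048685, which had 3990 FPKM at booting and 4669 at floral initiation, against 525 at D2, 864 at D1 and 865 at D3, and the locus on chromosome 3 at 57383231 to 57383791, with 1928 FPKM at booting and 199 at D2. Of the 10 most abundant at D2, the locus on chromosome 3 at 69212674 to 69216618 had 467 FPKM at booting and 2030 at D2, 1838 at D1 and 982 at D3.

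The share of calls changed with the length of the printed range. Among 516 loci under 1000 bp, 37.0% were lower and 18.6% higher at D2, with a median log2 difference of -0.34. Among 1992 loci of 8000 bp or more, 10.8% were lower and 13.7% higher, with a median of 0.14. D1 and D3, which share the booting column, gave medians of 0.20 and -0.08 under 1000 bp. Within the drought table, D2 against D1 had medians of -0.39 under 1000 bp and 0.11 at 8000 bp or more. Within the development table, booting against floral initiation had medians of 0.42 and -0.04, and 30% of the loci under 1000 bp were higher at booting. What part length plays in the calls was not tested, but with ranges under 2000 bp left out there were 1361 higher and 1386 lower loci, and the shares that matched D1 against floral initiation were 64.7% of the higher and 58.5% of the lower list.

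**Figure D5:**
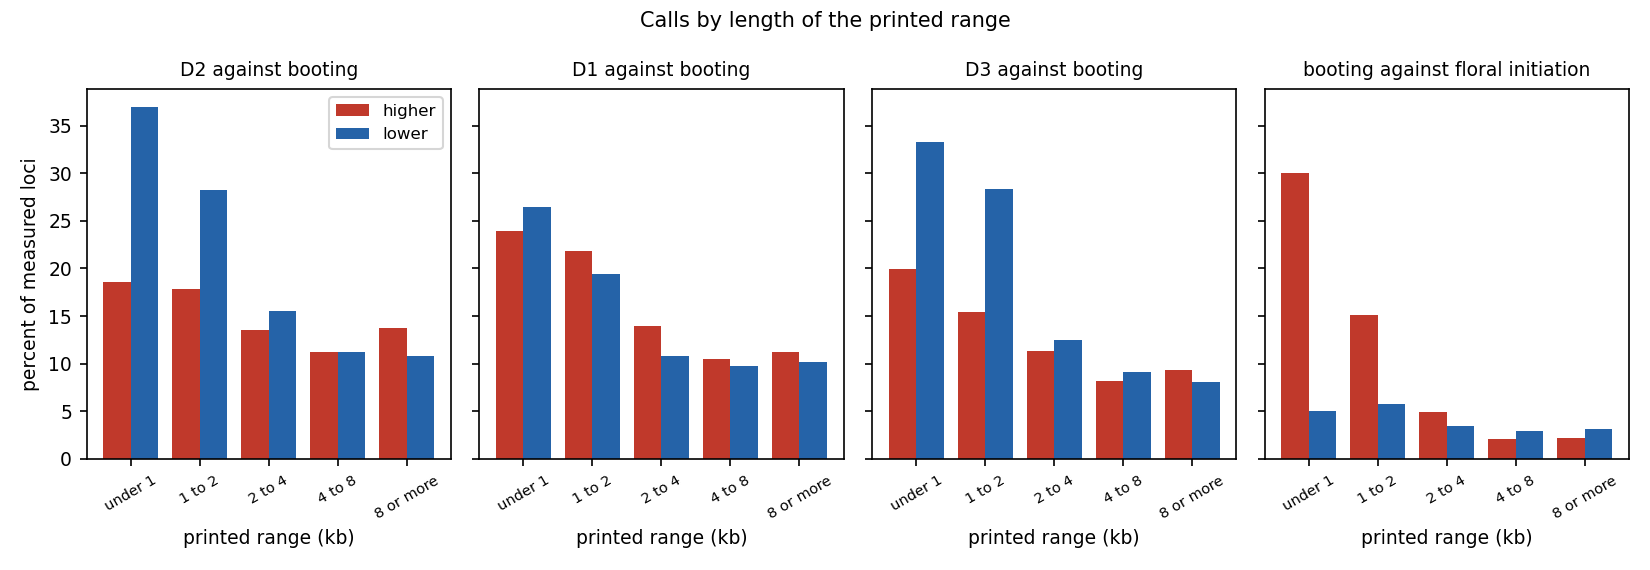
Percent of measured loci called higher (red) and lower (blue) by length of the printed range in kilobases, for the 3 pot groups against booting, which share that column, and for booting against floral initiation. Loci under 1 kb were lower at D2 in 37.0% of cases and higher at booting than at floral initiation in 30%.

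On the 10 chromosomes, the shares stayed near those of the whole. The lower share ran from 12.5% on chromosome 8 to 17.0% on chromosome 7, and the higher share from 11% on chromosome 7 to 14.6% on chromosome 3. Loci with several IDs were 3.62% of the higher and 3.17% of the lower list, and 3.39% of all. With the 11298 measured loci that have a range of their own put in order, 13 runs of at least 4 neighbours were called in the same direction. Of these runs, 12 were lower at D2 and 1 higher, and together they held 57 of the 11298 loci. How many runs the shares of calls alone would give was not tested. The number of runs depended on the settings, with 4 when ranges under 2000 bp were left out or the filter was 5 FPKM. It was 3 with no filter, 2 with a pseudocount of 5, 23 with a pseudocount of 0.1 and 26 with loci matched by a single ID. Overlapping transcripts or shared fragments of similar neighbours were not tested for.

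The longest run, on chromosome 3 from 28831985 to 29407695, held 7 loci that were lower at D2. The first 6 of them lie within 28831985 to 28861779. The run had medians of 9.21 FPKM at booting and 5.65 at milky stage, but 0.113 at floral initiation, 0.162 at soft dough and 0.505 at D2, 0.720 at D1 and 0.642 at D3. The seventh locus, at 29369735 to 29407695, differed from those medians, with 83.8 FPKM at booting, 55.99 at floral initiation, 75.7 at milky stage, 90.4 at soft dough and 37.2 at D2. On chromosome 4, 6 loci from 56994504 to 57250357 were lower, with medians of 47.4 FPKM at booting, 26.5 at floral initiation, 5.99 at milky stage and 24.5 at soft dough, against 1.88 at D2, 7.45 at D1 and 3.64 at D3. On chromosome 2, 4 loci from 64609749 to 64647055 had field medians of 3.93, 8.48, 6.15 and 15.1 FPKM along the stages, and 0.0284 at D2, 0.143 at D1 and a listed 0 at D3. The highest pot value among the 4 was 2.06 FPKM, at D1.

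The single run of higher loci lies on chromosome 2 from 72650376 to 72704293 and holds 4 loci. Its medians were 3.58 FPKM at booting, 21.04 at D2, 26.5 at D1 and 15.5 at D3, with 7.08 at floral initiation, 20.9 at milky stage and 23.1 at soft dough. The most abundant of them, at 72683937 to 72687311, had 26.6 FPKM at booting, 118 at D2, 130 at D1 and 80.7 at D3, and at most 32.7 in the field. The last of them, at 72698534 to 72704293, had 4.47 FPKM at booting and 20.97 at D2 but 34.7 at milky stage, so the neighbours differed in whether a field stage reached the pot levels.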

How the data were processed

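The authors deposited FPKM values, per the file headers, in separate tables for development and drought. Each group has 1 column, which the labels of both its libraries name, so columns were taken as pooled. Tools named in the submitters' processing notes, with no role, are HISAT2 2.0.5, Bowtie2 2.2.9, Cuffdiff and cutadapt 1.8.1. Not given in the sources used here are the genome build, the filters and the strand setting, and overlapping loci may share fragments. Library totals were not used, so the depth is unknown and no counting interval is given.

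Differences were computed as log2(FPKM + 1) at D2 minus booting with pandas 2.3.3 and numpy 2.4.6, and the calling and the search for runs were tested on simulated data. The added 1 shrinks the differences of low loci. Of 34129 IDs, 0 matched the RefSeq table used here (assembly NCBIv3), so the 44 gene lists had 0 members and were not run. The rule for that case named the 2 largest differences in each direction among loci with 1 ID, a range of their own and 5 FPKM or more in the higher column. Loci given by position were chosen after their values were seen. The members, lists and comparisons were chosen with earlier results of these data known. The plan gave no overlap or correlation as a result, since D1 and D3 share a table with D2, so those above depart from it. Alternatives were other pseudocounts, filters, scalings and ways to match loci, and, added after seeing the data, ranges under 2000 bp left out and columns rescaled to the sum of the booting column.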

Additional observations from a re-analysis of the deposited data

How the results depend on the processing

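The counts of 1715 higher and 1986 lower loci were recomputed under 13 alternatives. They left 1.5 times their value under a pseudocount of 5 (864 higher, 1089 lower) and a threshold of 2 log2 units (425 and 723), both of which reduce calls by construction. The other 11 alternatives gave 1361 to 2214 higher and 1386 to 2377 lower loci. Columns rescaled to a sum of 1e+06, which also raises every value against the pseudocount and the filter, turned the balance to 2204 higher and 2000 lower. Columns rescaled to the sum of the booting column turned it as well (2021 and 1833). There were 1567 higher and 2084 lower loci with size factors from median ratios. Dropping the filter could not change the counts, since a difference of 1 on this scale needs at least 1 FPKM in the higher column. Matching by a single ID whatever the range gave 2201 and 2377. All 49 recomputed differences of the 4 named loci kept their sign, but these were selected for their size. With ranges under 2000 bp left out only Sobic.009G119200 could be recomputed. The other named loci have ranges of 1462, 746 and 815 bp. The share of the higher list that was also higher at D1 than at floral initiation, and the like for lower loci, stayed above the opposite combination under all 13. That order was largely set in advance, as stated above, so these alternatives do not test it. The sizes of the shares were less stable. Of 232 recomputed shares, 86 left the 95% binomial interval of the main share, which treats loci as independent. At 2 log2 units, 20.3% of the lower list were lower at milky stage than at floral initiation, against 40.4% in the main setting. The 13 runs of neighbours became 1 to 26. No paired analysis was possible because each group has 1 pooled column. The alternatives for gene lists, and leaving out a replicate, could not be run for lack of list members and of values per library. The lack of replicate values limits every comparison, and the depth behind low loci and short ranges is unknown.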
